A study of Homo sapiens with 21 samples.

Results

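The 7 genes followed were ITGA1, ITGA2, ITGA10 and ITGA11, which code for the alpha chains of the collagen-binding integrins, and ITGA3, ITGA6 and ITGA7, which code for those of the main laminin-binding integrins. They were taken by gene symbol, and all 7 members were found among the 60728 gene rows of the deposited table. RNA-Seq had been performed on SK-N-BE(2), an established human neuroblastoma cell line, 72 h after transduction with lentiviral shRNAs. The 21 libraries form 7 conditions of 3 libraries each: a non-silencing control (Control), 2 conditions labelled shARID1A (shARID1A.2, shARID1A.4), 2 labelled shARID1B (shARID1B.2, shARID1B.3) and 2 labelled shARID1A/B (shARID1A/B.2.3, shARID1A/B.4.2). ARID1A and ARID1B are mutually exclusive structural subunits of the BAF chromatin remodelling complex. Short hairpin RNAs (shRNAs) make a cell destroy the transcript they match, and a label such as shARID1A.2 names the targeted gene followed by the hairpin number. All the cells carry a lentiviral vector, Control included, and a single cell line at a single time was sampled. The sources used here do not say whether the 3 libraries of a condition came from separate cultures, so the p-values measure the spread between libraries, which may be technical.

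The silencing targets were checked first, and they did not follow the labels. In Control the normalized read count of ARID1A was 6097, 6374 and 6463 in replicates 1, 2 and 3, and that of ARID1B was 5793, 5804 and 5791. The libraries labelled shARID1A had both transcripts low, with ARID1A at 2169, 2159.9 and 2109 in shARID1A.2 and 2289, 2157 and 2284 in shARID1A.4, and ARID1B at 2252, 2248 and 2224 and 3065, 3109.7 and 3126. Those labelled shARID1B had low ARID1A, at 1962, 1882 and 1916 in shARID1B.2 and 2507, 2479.9 and 2449.7 in shARID1B.3, while ARID1B was 5056, 4913 and 5043 and 6182, 6038 and 6053. Those labelled shARID1A/B had low ARID1B, at 2540.5, 2651 and 2607 in shARID1A/B.2.3 and 1886, 1881 and 1955 in shARID1A/B.4.2, while ARID1A was 5510.3, 5752 and 5714 and 5589, 5352 and 5379. In the libraries labelled shARID1B and shARID1A/B the other transcript also differed from Control, by less, at an adjusted p under 0.05 in limma. For ARID1B the log2 difference was -0.21 in shARID1B.2 and 0.07 in shARID1B.3. For ARID1A it was -0.16 in shARID1A/B.2.3 and -0.21 in shARID1A/B.4.2. The labels are used as written, and the transcripts that were low are named wherever a direction is drawn: both in the libraries labelled shARID1A, ARID1A in those labelled shARID1B, and ARID1B in those labelled shARID1A/B.

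Integrins are receptors made of an alpha and a beta chain that join the extracellular matrix to the actin cytoskeleton and signal in both directions. The collagen-binding alpha chains carry an extra inserted domain that holds the ligand and pair with the beta chain ITGB1. The laminin-binding chains recognise the laminins of basement membranes, pair with ITGB1 and, in the case of ITGA6, also with ITGB4, and sit in the membrane beside tetraspanins such as CD151. Talins and kindlins bind the beta tail and switch the receptors on.

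Recovered reads ranged from 27954334 to 41077638 per library. Summed normalized counts were 31245800 to 32815100 in the 9 libraries of shARID1A.2, shARID1B.2 and shARID1A/B.4.2, and 34891100 to 35919800 in the other 12. All 12 adrenergic neuroblastoma markers checked were detected in every library, while SOX10, the defining marker of Schwann cells, was 0 in all of them, and PECAM1 (endothelial) and CD3E (T cells) were at most 2.81 and 8.5. Of 5 fibroblast markers, COL1A1, LUM, PDGFRB and DCN were abundant in these tumour cells, and COL1A2 was 18.5 in Control. The sum of these 5 genes was 33383 to 33902 in Control, 9800 to 10558 in shARID1A.2, 12751 to 13011 in shARID1A.4, 29061 to 30170 in shARID1B.2, 28055 to 29552 in shARID1B.3, 18371 to 18689 in shARID1A/B.2.3 and 12893 to 13350 in shARID1A/B.4.2. Its part in the integrin levels was not tested. In bulk RNA, fewer cells that express a gene and less of its RNA per cell cannot be told apart.

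Most of the 7 integrins were lower than in Control in every silenced condition. All 7 passed the filter on low counts, and limma was applied to log2(normalized count + 1) over 18584 genes, with a call at a Benjamini-Hochberg adjusted p under 0.05. In shARID1A.2 (both transcripts low), 5 of 7 members were called lower, against 38.2% of all genes tested. In shARID1A.4 (both low) 6 were lower, with a background of 36.6%. Among the libraries with ARID1A low, 5 members were lower in shARID1B.2 and 4 in shARID1B.3, where 34% and 32% of all genes were. With ARID1B low, 6 were lower in shARID1A/B.2.3 and 5 in shARID1A/B.4.2, against 34% and 36.1%. The only call in the other direction was ITGA2 in shARID1B.3, where 31.9% of all genes were higher. The median log2 difference of the 7 members was -1.15, -1.69, -0.86, -0.65, -0.85 and -0.86 in these 6 comparisons in the same order, whereas the median of all genes tested lay between 0.01 and 0.02 in each. In shARID1B.2 and shARID1B.3 the member at the median was ITGA10, which had few reads and was not called. ITGA1, ITGA3, ITGA6 and ITGA11 were lower in all 6 conditions, ITGA2 in 5, ITGA7 in 2 and ITGA10 in none. The 6 comparisons share the 3 Control libraries, and the share of all genes lower in all 6 was not computed. These counts across conditions are therefore a description.

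**Figure D1:**
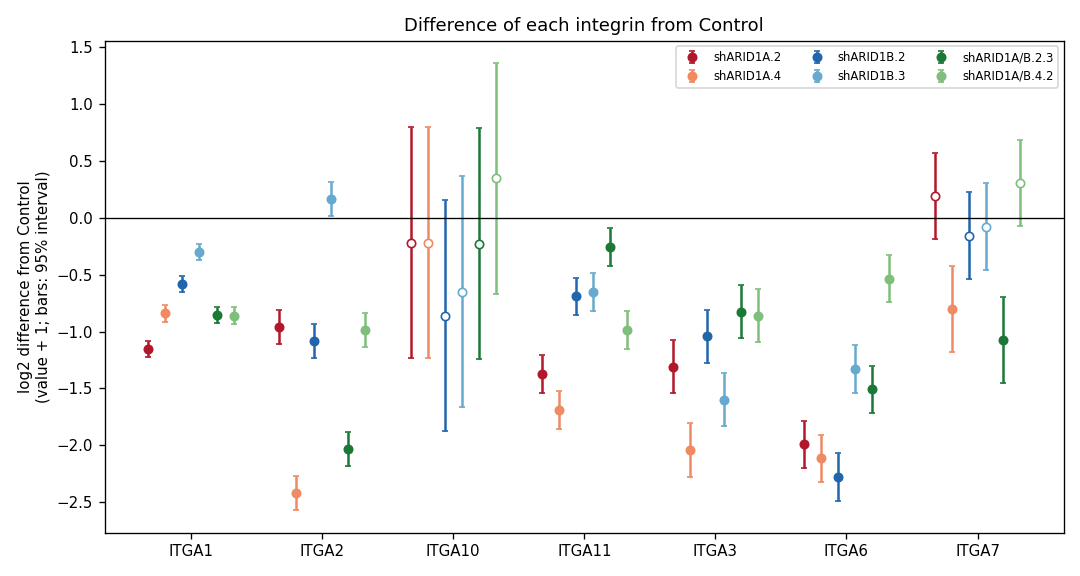
Log2 difference of each integrin (x axis) from Control on the scale of normalized count plus 1 (y axis), with 95% intervals from limma and 3 libraries per condition. Filled points were called at an adjusted p under 0.05 and open points were not. ITGA1, ITGA3, ITGA6 and ITGA11 lie below 0 in all 6 conditions, while ITGA10 has wide intervals that all include 0.

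ITGA1 and ITGA2 are neighbours on chromosome 5, in the same orientation and 30115 bases apart on GRCh38, with ITGA1 at chr5:52787896-52959210 and ITGA2 at chr5:52989326-53094779, both on the plus strand. The 250 bases before the RefSeq start (GRCh38.p14) of these neighbours, whose ratio varied across the conditions, and of ITGA6, which was lower in all 6 silenced conditions, are shown so that they can be compared. They are chr5:52787666-52787915 for ITGA1, chr5:52989102-52989351 for ITGA2 and chr2:172427086-172427335 for ITGA6, plus strand, and the first pair ends inside the first bases of the gene as GENCODE draws it. Capitals mark matches, on either strand, to the GC box GGGCGG or the TATA box TATAAA.
ITGA1: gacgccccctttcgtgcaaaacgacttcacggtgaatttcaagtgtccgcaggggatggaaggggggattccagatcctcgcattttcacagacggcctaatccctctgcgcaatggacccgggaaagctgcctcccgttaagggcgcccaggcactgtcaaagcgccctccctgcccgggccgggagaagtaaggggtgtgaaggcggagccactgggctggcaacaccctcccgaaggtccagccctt
ITGA2: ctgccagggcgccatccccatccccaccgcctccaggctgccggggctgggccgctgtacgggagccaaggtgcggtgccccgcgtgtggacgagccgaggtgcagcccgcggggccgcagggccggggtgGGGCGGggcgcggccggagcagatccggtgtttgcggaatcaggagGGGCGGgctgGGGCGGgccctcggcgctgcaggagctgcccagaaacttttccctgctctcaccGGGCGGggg
ITGA6: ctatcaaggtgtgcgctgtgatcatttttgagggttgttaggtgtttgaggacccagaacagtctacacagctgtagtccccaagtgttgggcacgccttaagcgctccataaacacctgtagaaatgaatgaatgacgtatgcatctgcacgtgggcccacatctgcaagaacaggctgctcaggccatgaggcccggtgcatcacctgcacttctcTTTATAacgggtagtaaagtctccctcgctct
The ITGA2 window held 4 GC boxes, a motif present in 42.5% of 34943 RefSeq windows of this length. The ITGA1 window held none of the 5 motifs searched, which were the GC box, AP-1 (TGANTCA, in 6.59% of windows), TEAD (GGAATG, 11.9%), the CCAAT box (CCAAT, 32%) and the TATA box (10.8%). ITGA6 had 1 TATA box on the reverse strand. In the windows not printed, ITGA10 held 1 TEAD and 1 CCAAT match and ITGA11 held none. The motifs do not overlap one another, and a match is a description of the letters only. GC content was 62.0% for ITGA1, 76.4% for ITGA2, 50.8% for ITGA6, 48.4% for ITGA10 and 71.2% for ITGA11, against a median of 58% over all windows. Windows were matched for 5 of the 7 members, all but ITGA3 and ITGA7.

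ITGA1, a receptor for basement membrane and fibrillar collagens, was the most abundant member per length. Its normalized read count was 6272, 6281 and 6072 in Control, 2685, 2949.9 and 2738 in shARID1A.2 and 3539.8, 3460.5 and 3405 in shARID1A.4. With ARID1A low it was 4261, 3975 and 4209.6 in shARID1B.2 and 5171, 4784 and 5164 in shARID1B.3. With ARID1B low it was 3446, 3475 and 3379 in shARID1A/B.2.3 and 3521, 3305 and 3429.8 in shARID1A/B.4.2. All 18 silenced libraries were below all 3 Control libraries. The log2 difference was -1.15 ± 0.04 (SE, limma adjusted p = 1.6e-19) in shARID1A.2, the lowest condition, and -0.30 ± 0.04 (SE, limma adjusted p = 6.3e-08) in shARID1B.3, the nearest to Control, with -0.84, -0.58, -0.85 and -0.86 in shARID1A.4, shARID1B.2, shARID1A/B.2.3 and shARID1A/B.4.2. In the order of its 7 means, shARID1A.4, shARID1A/B.2.3 and shARID1A/B.4.2 were neighbours that did not differ beyond their spread, and the other neighbours did. The gene PELO starts 44 bases inside ITGA1 on the same strand and shares exon bases with it, so the division of reads between them is uncertain. PELO was called lower, like ITGA1, in shARID1A.2, shARID1B.2, shARID1B.3 and shARID1A/B.4.2, with log2 differences of -0.76, -0.64, -0.23 and -0.70. Unlike ITGA1, PELO was called higher in shARID1A.4 (0.31) and shARID1A/B.2.3 (0.46). The normalized read count of PELO was 2063 ± 44.3 in Control (SD, n = 3) and 1217 ± 54.7 in shARID1A.2. It was 2562 ± 29.5 in shARID1A.4 and 2833 ± 20.8 in shARID1A/B.2.3.

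ITGA2, the receptor through which platelets and epithelial cells hold fibrillar collagen, covered a wider range than ITGA1. Its normalized read count was 1411, 1314 and 1393 in Control, 699, 715 and 702 in shARID1A.2 and 223, 287 and 260.5 in shARID1A.4. It was 658, 631 and 652 in shARID1B.2 and 1395, 1739.7 and 1508 in shARID1B.3. In shARID1A/B.2.3 it was 345, 311 and 350.3, and in shARID1A/B.4.2 it was 691, 715 and 672. Its level was near Control in shARID1B.3 and intermediate in shARID1A.2, shARID1B.2 and shARID1A/B.4.2, of which no pair was called different. It was lower still in shARID1A/B.2.3 and lowest in shARID1A.4, and these differed from each other by -0.39 on the log2 scale (limma adjusted p = 7.46e-05). Log2 differences from Control were -2.42 ± 0.07 (SE, limma adjusted p = 1.22e-19) in shARID1A.4 and -2.03 ± 0.07 (SE, limma adjusted p = 5.9e-18) in shARID1A/B.2.3, and -0.96, -1.08 and -0.98 at the intermediate level. The value in shARID1B.3 was 0.17 ± 0.07 (SE, limma adjusted p = 0.0493), the groups overlapped there, and this call was lost under 9 of 17 alternatives, among them when any 1 Control library or shARID1B.3 replicate 2 or 3 was left out, with log2 differences of 0.08 to 0.19. The per-length ratio of ITGA2 to ITGA1 was 0.519 ± 0.0249 in Control (SD, n = 3), 0.594 ± 0.0221 in shARID1A.2, 0.174 ± 0.0236 in shARID1A.4, 0.366 ± 0.0055 in shARID1B.2, 0.724 ± 0.115 in shARID1B.3, 0.229 ± 0.0175 in shARID1A/B.2.3 and 0.476 ± 0.0274 in shARID1A/B.4.2. The neighbours thus did not keep a fixed ratio. The 3 conditions at the intermediate level are those with the lower summed normalized counts, and the part of that split in the ITGA2 levels was not tested.

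ITGA11 (chr15:68296533-68432162, minus strand), a receptor for fibrillar collagen best known from fibroblasts, was 1559.8, 1420.3 and 1570.4 in Control. Where both transcripts were low it was 586, 558 and 610.3 in shARID1A.2 and 492, 445 and 471 in shARID1A.4, the lowest of all. With ARID1A low it was 897, 993 and 925 in shARID1B.2 and 844, 1134 and 932 in shARID1B.3, and with ARID1B low 1209, 1291 and 1316 in shARID1A/B.2.3 and 681, 849 and 767 in shARID1A/B.4.2. No silenced library reached the Control range. The log2 difference was -1.37 ± 0.08 (SE, limma adjusted p = 8.15e-14) in shARID1A.2, -1.69 ± 0.08 (SE, limma adjusted p = 1.28e-15) in shARID1A.4 and -0.25 ± 0.08 (SE, limma adjusted p = 0.00765) in shARID1A/B.2.3, the smallest. That smallest call was lost with upper-quartile scaling, at -0.18 and an adjusted p from limma of 0.0533. The differences were -0.69 in shARID1B.2, -0.65 in shARID1B.3 and -0.99 in shARID1A/B.4.2. Of neighbours in the order of its means, shARID1B.2 and shARID1B.3 were the pair that did not differ.

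ITGA10 (chr1:145891208-145910189, minus strand), a collagen receptor known from cartilage, was close to the detection limit, with 3 to 20 recovered reads per library. Its normalized read count was 4.7, 10.1 and 19.5 in Control, so that these 3 libraries span most of the range of all 21. The silenced libraries ran from 3.47 to 15.4, and no neighbours in the order of its means differed. None of the 6 comparisons with Control was called, and the intervals were wide, from -1.23 to 0.80 in shARID1A.2 to -1.88 to 0.16 in shARID1B.2. The difference in shARID1B.2, -0.86, came to a call without Control replicate 1 (-1.33, limma adjusted p = 0.0284) and without shARID1B.2 replicate 1 (-1.27, limma adjusted p = 0.0406). The interval in shARID1A.2 reached past a log2 difference of 1 in size on the lower side, so a fall of that size was not excluded there.

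ITGA6 (chr2:172427354-172506282, plus strand), the laminin receptor of epithelial hemidesmosomes and of many stem cells, was the most abundant laminin-binding member per length. It was 585, 589.9 and 599 in Control, 149, 150.4 and 145 in shARID1A.2 and 119, 159 and 131 in shARID1A.4. With ARID1A low it was 141, 103 and 122 in shARID1B.2 and 249, 243 and 213 in shARID1B.3. With ARID1B low it was 211, 215 and 197 in shARID1A/B.2.3 and 424, 416 and 386 in shARID1A/B.4.2. All 18 silenced libraries lay below Control without overlap, and shARID1A/B.4.2 stood apart as the highest of them. The log2 difference was -2.28 ± 0.10 (SE, limma adjusted p = 6.04e-16) in shARID1B.2, -2.12 ± 0.10 (SE, limma adjusted p = 1.19e-15) in shARID1A.4 and -1.99 ± 0.10 (SE, limma adjusted p = 4.03e-15) in shARID1A.2. In the order of means shARID1A.4 was not called different from either of its neighbours, but shARID1B.2 was lower than shARID1A.2 (log2 difference -0.29, limma adjusted p = 0.0157). The difference of shARID1A.4 from shARID1A.2, -0.13, came to a call with scaling to total reads (-0.27), with upper-quartile scaling (-0.22) and without shARID1A.4 replicate 2 (-0.24). It was -1.33 in shARID1B.3 and -1.51 in shARID1A/B.2.3, which also did not differ, and -0.53 ± 0.10 (SE, limma adjusted p = 4.76e-05) in shARID1A/B.4.2.

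ITGA3 (chr17:50055968-50090481, plus strand), which holds epithelial cells to basement membrane laminin in a complex with CD151, was lower in every silenced library than in any Control library. Its normalized read count was 322, 298 and 254 in Control, 117, 96.8 and 138 in shARID1A.2 and 75.8, 65.4 and 67.9 in shARID1A.4. It was 149, 140.1 and 132 in shARID1B.2 and 98.6, 96 and 90.7 in shARID1B.3, with ARID1A low. With ARID1B low it was 161, 171 and 158 in shARID1A/B.2.3 and 150.3, 164 and 163 in shARID1A/B.4.2. The lowest level was that of shARID1A.4, with a log2 difference of -2.04 ± 0.11 (SE, limma adjusted p = 2.52e-14), and the next that of shARID1B.3, -1.60 ± 0.11 (SE, limma adjusted p = 6.7e-12). The other differences were -1.31 in shARID1A.2, -1.04 in shARID1B.2, -0.83 in shARID1A/B.2.3 and -0.86 in shARID1A/B.4.2. Both conditions labelled shARID1A/B and shARID1B.2 were neighbours that did not differ.

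ITGA7 (chr12:55684568-55716043, minus strand), the laminin receptor of skeletal muscle, was present at a low level and fell in 2 conditions only. It was 54, 57.1 and 72.9 in Control, 74, 65.9 and 69 in shARID1A.2 and 28.2, 42.8 and 33.9 in shARID1A.4. The libraries labelled shARID1B had 49.9, 52.1 and 62.2 and 45.8, 72.2 and 57.9. Those labelled shARID1A/B had 26.3, 34.4 and 25.3 in shARID1A/B.2.3 and 77.4, 76.5 and 72.1 in shARID1A/B.4.2. The 6 libraries of shARID1A.4 and shARID1A/B.2.3 were the lowest of all 21 and did not overlap with Control, with log2 differences of -0.80 ± 0.18 (SE, limma adjusted p = 0.000392) and -1.07 ± 0.18 (SE, limma adjusted p = 1.36e-05). The other 4 conditions were not called, with intervals of -0.19 to 0.57 in shARID1A.2, -0.53 to 0.22 in shARID1B.2, -0.46 to 0.30 in shARID1B.3 and -0.08 to 0.68 in shARID1A/B.4.2. Scaling to total reads or by the upper quartile brought the last to a call, at 0.49 and 0.46. The ends of ITGA7 overlap METTL7B and BLOC1S1 on the opposite strand, and whether counting used strand is not given in the sources used here.

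**Figure D2:**
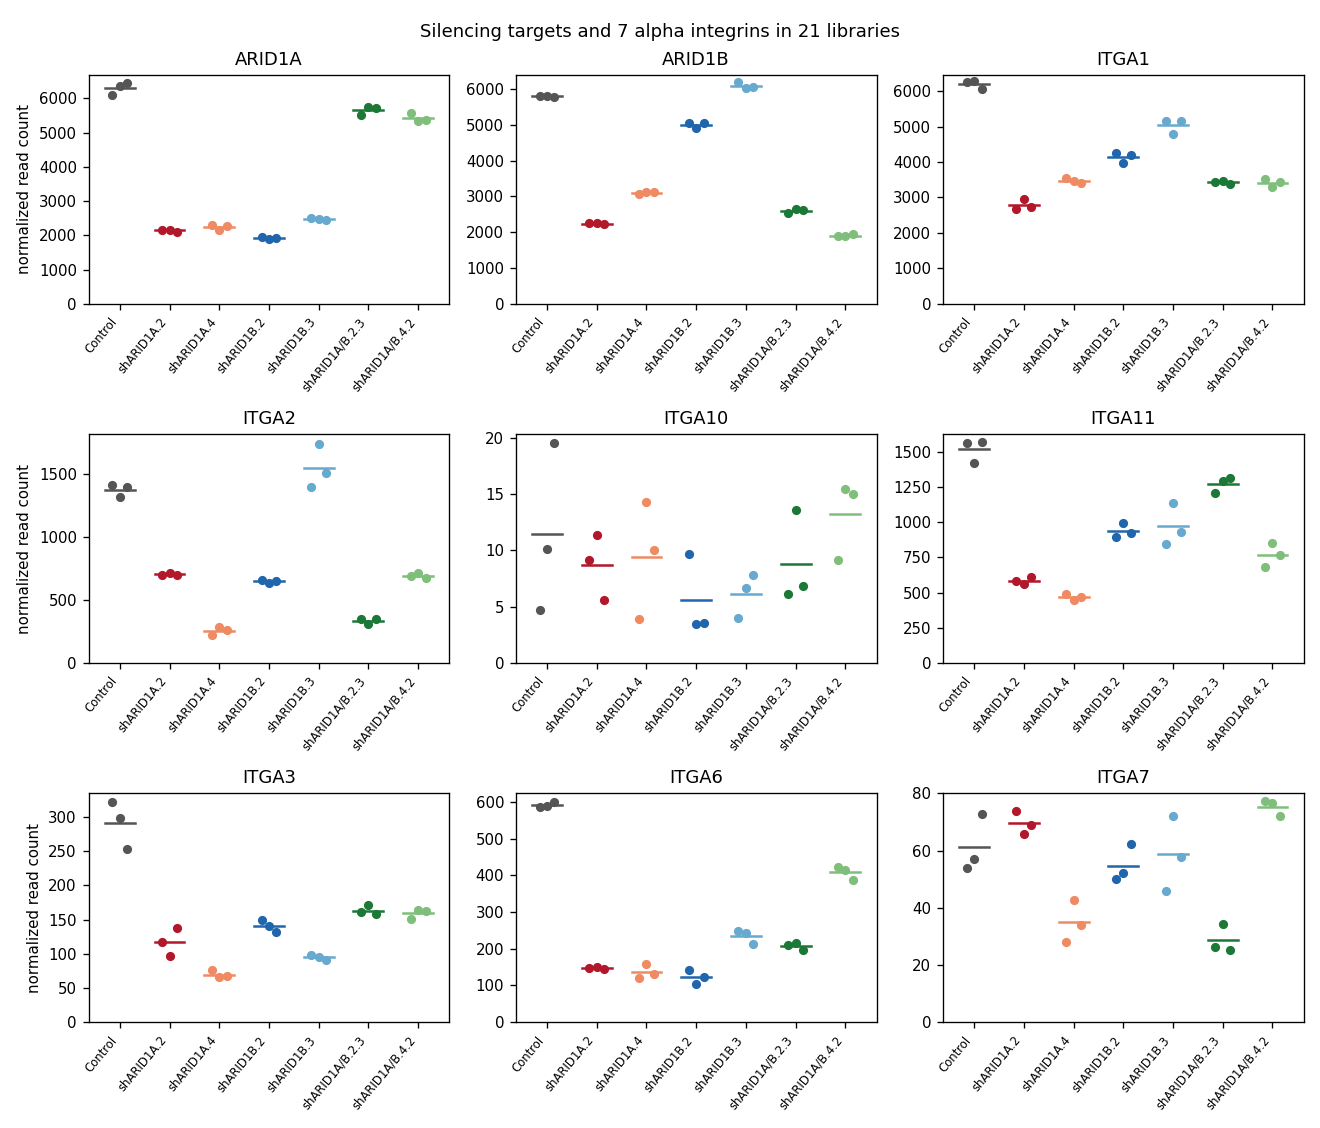
Normalized read count (y axes, from 0) of ARID1A, ARID1B and the 7 integrins in the 3 libraries of each condition (points), with the mean as a line. ITGA1, ITGA3, ITGA6 and ITGA11 are below the Control range in all 18 silenced libraries, whereas ITGA2 returns to the Control level in shARID1B.3 and ITGA7 drops in shARID1A.4 and shARID1A/B.2.3.

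Levels were compared between genes per kilobase of annotated exon, which makes no allowance for the isoforms in use. In Control the 7 members summed to 779 ± 12.5 normalized reads per kilobase (SD, n = 3). ITGA1 made up 42.9 ± 1.12% of this sum, ITGA2 22.3 ± 0.51%, ITGA11 17.9 ± 0.766%, ITGA6 11.6 ± 0.262%, ITGA3 3.81 ± 0.435%, ITGA7 1.24 ± 0.206% and ITGA10 0.233 ± 0.152%. The collagen-binding members thus carried most of the Control level. The sum fell to 43.7% of the Control mean in shARID1A.2 and 38.2% in shARID1A.4, to 55.7% in shARID1B.2 and 78.6% in shARID1B.3, and to 51.2% in shARID1A/B.2.3 and 55.8% in shARID1A/B.4.2. These sums were not tested and are given as a description. Collagen-binding members stood at 45.4, 40.7, 60.4, 85.8, 53.3 and 53.0% of Control in the same order, and laminin-binding members at 35.1, 25.8, 32.0, 42.3, 40.7 and 69.8%. The laminin-binding sum was thus the lower of the pair everywhere except in shARID1A/B.4.2. There ITGA6 was below Control (log2 difference -0.53) but higher than in any other silenced condition. The mean of ITGA7 there was 75.3 against 61.3 in Control, a difference that was not called. In shARID1A.4, ITGA1 alone was 62.8 ± 1.62% of the sum.

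**Figure D3:**
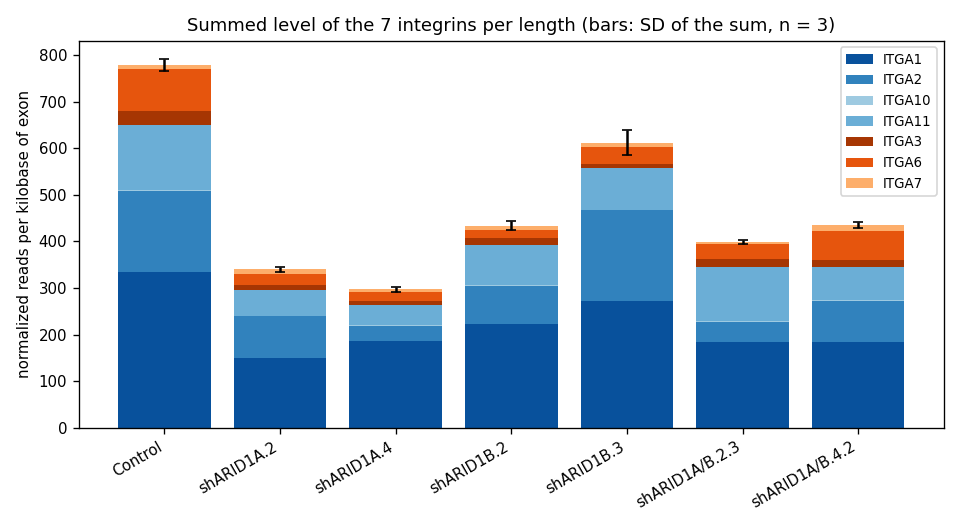
Stacked mean normalized reads per kilobase of exon (y axis) of the 7 integrins in each condition (x axis), with blue shades for collagen-binding and orange shades for laminin-binding members, and error bars for the SD of the sum over 3 libraries. The Control sum of 779 falls to between 297 and 612 in the silenced conditions.

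The silenced labels were then compared directly, to ask whether the level differs between cells with both transcripts low and those with 1 of them low. The mean of both conditions of a label was contrasted with that of another, 6 against 6 libraries, and the spread tested is that between libraries, not between hairpins. In the libraries labelled shARID1A (both low), 5 of 7 members were lower than in those labelled shARID1B (ARID1A low), against 32.8% of all genes, and 5 of 7 were lower than in those labelled shARID1A/B (ARID1B low), against 28.7%. The 5 were ITGA1, ITGA2, ITGA3, ITGA6 and ITGA11 both times. ITGA11 showed the difference in every pairing of conditions, 4 of 4 with each label and without overlap, with log2 differences of -0.86 ± 0.06 (SE, limma adjusted p = 1.43e-12) and -0.91 ± 0.06 (SE, limma adjusted p = 1.01e-12). ITGA1 was -0.56 ± 0.03 (SE, limma adjusted p = 7.47e-16) against shARID1B, lower in 4 of 4 pairings, but -0.14 ± 0.03 (SE, limma adjusted p = 3.81e-05) against shARID1A/B, where 2 of 4 pairings were called and the libraries overlapped. For ITGA2 the differences were -1.23 ± 0.05 (SE, limma adjusted p = 1.76e-16) and -0.18 ± 0.05 (SE, limma adjusted p = 0.00403), and 3 and 2 of 4 pairings were called lower, with 1 of the latter called higher.

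Of the laminin-binding members, ITGA6 and ITGA3 differed more from the ARID1B-low than from the ARID1A-low libraries. ITGA6 was -1.03 ± 0.07 (SE, limma adjusted p = 6.03e-12) against shARID1A/B, called lower in 4 of 4 pairings, and -0.25 ± 0.07 (SE, limma adjusted p = 0.00348) against shARID1B, lower in 2 pairings and higher in 1. ITGA3 was -0.83 ± 0.08 (SE, limma adjusted p = 2.42e-09) against shARID1A/B, lower in 4 of 4 pairings, and -0.36 ± 0.08 (SE, limma adjusted p = 0.000359) against shARID1B, lower in 3 and higher in 1. ITGA7 was called in neither, with intervals of -0.46 to 0.08 and -0.19 to 0.35.

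Between the libraries with ARID1B low and those with ARID1A low, the members divided. Labelled shARID1A/B against shARID1B, 2 of 7 were lower, with 35% of all genes lower, and 3 were higher, with 35.1% higher. The lower members were ITGA1 at -0.42 ± 0.03 (SE, limma adjusted p = 1.64e-13) and ITGA2 at -1.05 ± 0.05 (SE, limma adjusted p = 2.9e-15), the first in 4 of 4 pairings and the second in 3 of 4. The higher members were ITGA6 at 0.78 ± 0.07 (SE, limma adjusted p = 4.46e-10), in 3 of 4 pairings, ITGA3 at 0.48 ± 0.08 (SE, limma adjusted p = 1.03e-05), in 2 of 4, and ITGA10 at 0.81 ± 0.35 (SE, limma adjusted p = 0.0406). The ITGA10 call rests on few reads and was lost with DESeq2, with no filter and when any of 6 libraries was left out (shARID1B.2 replicate 2 or 3, shARID1B.3 replicate 1, shARID1A/B.2.3 replicate 2, shARID1A/B.4.2 replicate 2 or 3), at log2 differences of 0.65 to 0.87. ITGA11 was not called, with an interval of -0.07 to 0.17, and its 4 pairings went 2 each way. Without shARID1B.3 replicate 2 it came to a call at 0.11 (limma adjusted p = 0.0487). ITGA7 was not called either, with an interval of -0.54 to 0.00, but came to a call as lower with edgeR (-0.29, quasi-likelihood adjusted p = 0.0476), without shARID1B.3 replicate 1 (-0.35) and without shARID1A/B.2.3 replicate 2 (-0.33).

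**Figure D4:**
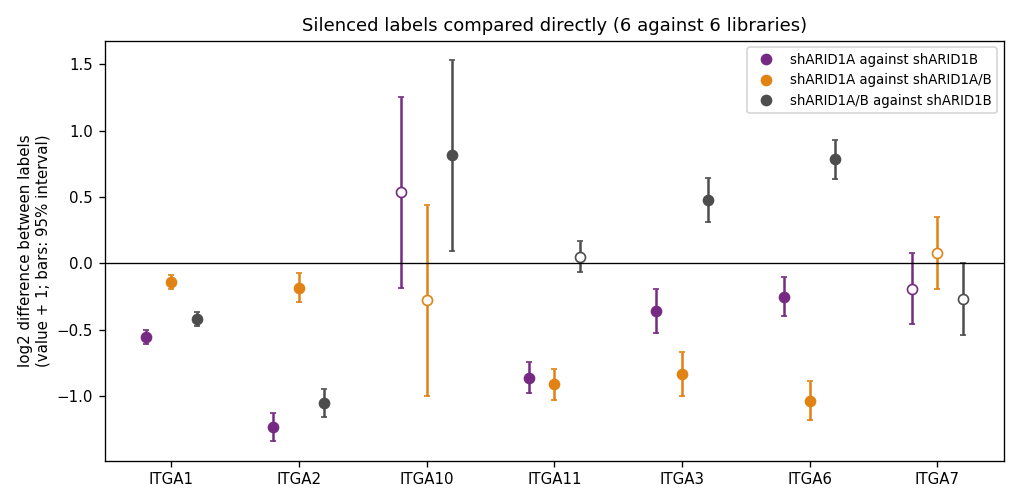
Log2 difference between the means of labels (y axis, normalized count plus 1, 95% intervals from limma, 6 against 6 libraries) for each integrin (x axis). Filled points were called at an adjusted p under 0.05. ITGA1 and ITGA2 are lower and ITGA3 and ITGA6 higher in shARID1A/B than in shARID1B, while ITGA11 is lower in shARID1A by 0.86 and 0.91 on the log2 scale.

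Conditions of 1 label also differed from each other. In shARID1A.4 against shARID1A.2, 4 members were lower and 1 higher, where 38.4% and 37.3% of all genes were. In shARID1B.3 against shARID1B.2, 1 was lower and 3 higher, against 33% of all genes in each direction. In shARID1A/B.4.2 against shARID1A/B.2.3, 1 was lower and 3 higher, against 37.1% and 37.8%. ITGA2 differed in all 3, by -1.46 ± 0.07 (SE, limma adjusted p = 3e-15), 1.25 ± 0.07 (SE, limma adjusted p = 1.17e-13) and 1.05 ± 0.07 (SE, limma adjusted p = 2.66e-12). ITGA7 differed by 1.38 ± 0.18 (SE, limma adjusted p = 2.99e-07) between the conditions labelled shARID1A/B, and ITGA6 by 0.97 ± 0.10 (SE, limma adjusted p = 4.11e-09). In each of these 3 pairs, 1 condition has the lower and the other the higher summed normalized counts. With scaling to total reads, the median of all genes moved from -0.03, -0.01 and 0.02 to -0.18, -0.11 and 0.17 in the 3 pairs, and the share of calls that were lower from 50.7, 49.96 and 49.6% to 60.8, 60.8 and 38.6%.

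The partners, regulators and ligands were described from a list of 47 genes, 44 of which passed the filter (DAB2, GP6 and LAIR1 did not). The beta chain ITGB1, shared by all 7 members, had a mean of 24198 in Control, and its log2 difference was -1.46 in shARID1A.2 and -1.65 in shARID1B.2 but -0.31 in shARID1A.4, -0.38 in shARID1A/B.2.3 and -0.53 in shARID1A/B.4.2, all 5 called. In shARID1B.3 it was -0.05 and not called. ITGB4, the partner of ITGA6 in hemidesmosomes, had a Control mean of 19.7 and was higher in both conditions labelled shARID1A (0.95 and 0.61) and both labelled shARID1B (1.32 and 1.01). Of 6 tetraspanins, 5, 6, 4, 6, 4 and 4 were lower in the 6 conditions, in the order of the medians above (labels shARID1A, shARID1B, then shARID1A/B), where 38.2, 36.6, 34, 32, 34 and 36.1% of all genes tested were lower. In the same order 1, 0, 1, 0, 0 and 1 tetraspanins were higher, where 37.9, 37, 31.6, 31.9, 35.2 and 35.1% of all genes were, and the counts of the lists that follow are to be read against these shares. CD9 fell most in shARID1A.4 (-2.22) and shARID1B.3 (-2.14), CD151 fell in all 6 conditions, most in shARID1A.2 (-1.39), and the abundant CD81 and CD63 were also lower in all 6, with CD81 between -0.35 and -0.07. CD82 went both ways, from 1.87 in shARID1A.2 to -1.68 in shARID1B.3.

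Among 8 tested activators and inactivators, 7, 4, 7, 4, 3 and 6 were lower and 1, 2, 1, 1, 3 and 1 higher in the same order, so that in shARID1A/B.2.3 the share in each direction was near that of all genes. FERMT2, the kindlin found in most tissues, was lower in all 6 conditions, from -0.93 in shARID1B.2 to -0.27 in shARID1B.3, as was the actin crosslinker FLNA, from -1.04 in shARID1A.2 to -0.19 in shARID1A/B.2.3. On the log2 scale FERMT1, the epithelial kindlin, rose by 2.17 in shARID1A.4 and 2.10 in shARID1A/B.2.3, and FERMT3, the kindlin of blood cells, fell by 1.87 in shARID1A.2 and 2.07 in shARID1B.2. Of 4 tested other receptors for these ligands, 0, 3, 0, 2, 2 and 1 were lower and 2, 1, 3, 2, 2 and 3 higher, with a median log2 difference of 0.38, -0.22, 0.23, 0.03, 0.12 and 0.52. The collagen receptor kinase DDR1 was higher in all 6 conditions, by 1.46 in shARID1A.2, 0.68 in shARID1A.4, 0.83 in shARID1B.2, 0.31 in shARID1B.3, 0.70 in shARID1A/B.2.3 and 1.04 in shARID1A/B.4.2, and its relative DDR2 was called higher in 4 and lower in 2. BCAM, a laminin receptor, ranged from -1.22 in shARID1B.3 to 0.97 in shARID1A/B.4.2.

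Of 13 collagen genes, 9, 12, 5, 9, 10 and 10 were lower in the 6 conditions and 2, 1, 4, 1, 2 and 1 higher, with a median log2 difference of -0.96, -1.32, -0.02, -0.36, -0.72 and -1.03. In shARID1B.2 both counts were near the share of all genes. COL6A3 and COL6A2 were lower in all 6. COL1A1, the main chain of type I collagen and one of the fibroblast markers above, was -3.24 in shARID1A.2 and -3.97 in shARID1A/B.4.2 but -0.02, not called, in shARID1B.2. The basement membrane chain COL4A2, the most abundant, was -1.71 in shARID1A/B.4.2 and -1.07 in shARID1A.2 and was higher at 0.27 in shARID1B.2. COL5A2 was higher in all 6 conditions, up to 1.40 in shARID1A.4. The 11 laminin chains had 7, 6, 7, 6, 6 and 6 lower and 2, 2, 0, 2, 1 and 1 higher. LAMB1, the most abundant, was lower in all 6, between -0.61 and -0.15, LAMC1 was -1.68 in shARID1B.2 and 0.12 in shARID1B.3, and LAMA4 was called lower with ARID1A low (-1.19 and -1.11) and higher in the other 4 conditions (0.30 to 1.09).

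**Figure D5:**
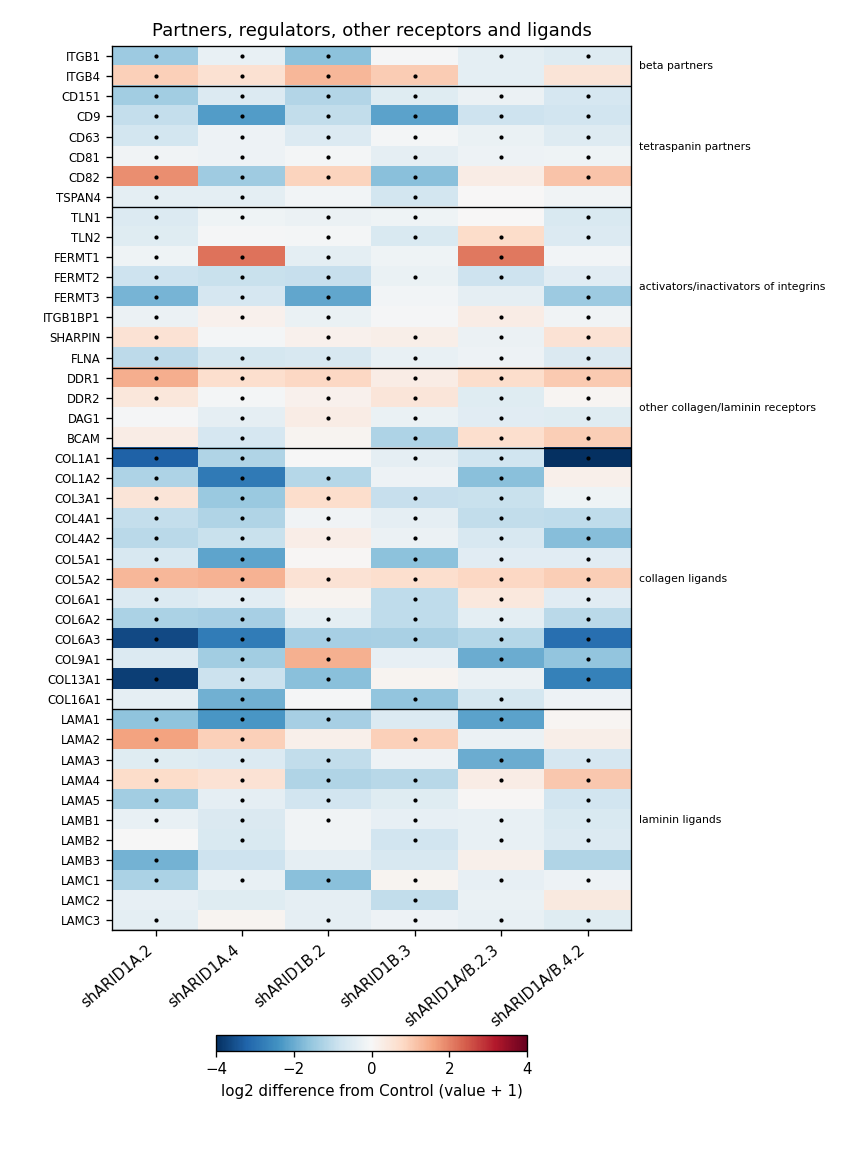
Log2 difference from Control (colour, normalized count plus 1, 3 libraries per condition) of 44 integrin partners, regulators, other receptors and ligands (rows) in the 6 silenced conditions (columns). Black dots mark calls at an adjusted p under 0.05 in limma. DDR1 and COL5A2 are higher in all 6 columns, and CD151, FERMT2, COL6A3 and LAMB1 are lower in all 6.

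The genes most like each member were named by Pearson's r of log2(normalized count + 1) over the 21 libraries, among 13674 other genes (13675 for ITGA10) with a mean of at least 50. The libraries share conditions and the Control, so r is a description. ITGA1 was most like ANLN (0.98), followed by FAM111B (0.98) and TMPO (0.98). ITGA2 was most like POLR1B (0.97), UCHL5 (0.96) and RNPS1 (0.96), and ITGA11 most like TPM1 (0.97), ASTN2 (0.95) and DIDO1 (0.94). ITGA6 was most like ROCK2 (0.98), MAN1A1 (0.98) and SLC10A4 (0.96). ITGA3 was most like ZMYND19 (0.96), SYNE2 (0.96) and LRP6 (0.96), ITGA7 most like THAP10 (0.94), PPP6C (0.94) and ATXN7L3 (0.93), and for ITGA10 no gene passed 0.69 (TBCE, with LMAN2L and MT-CO3 next). None of the 7 members was among the 3 genes most like another. The closest members were ITGA3 and ITGA11 at 0.79 and ITGA3 and ITGA6 at 0.71, while the neighbours ITGA1 and ITGA2 reached 0.66.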

How the data were processed

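Polyadenylated RNA of SK-N-BE(2) cells was made into stranded libraries (TruSeq) and sequenced on a NovaSeq instrument. The submitters' processing notes name GRCh38, STAR 2.5.3a, RSEM 1.3.0 and DESeq2 1.26.0. The deposited unit is a signal, here called the normalized read count: the authors had divided the reads on each gene by a size factor of the library (0.841 to 1.295). Multiplying back gave reads that were whole within 0.05 read for 100% of values (largest deviation 0.0094 read), with totals from 27954334 to 41077638. Tables of the authors' own comparisons (fold changes and p-values) were left unused. Every value column carries the name of its library.

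Of 60728 gene identifiers, 58541 were found without version in GENCODE 29, which gave coordinates and exon lengths. Filtering the recovered reads with edgeR left 18584 genes. Each of the 7 conditions was compared by limma with a trend on log2(value + 1), with Benjamini-Hochberg adjustment over all genes tested and a threshold of 0.05. This scale understates the change of low genes. Alternatives were edgeR's quasi-likelihood test and DESeq2's Wald test on recovered reads, pseudocounts of 0.5 and 5, no filter, a filter of 10 reads, other scalings, only the libraries compared, the replicate number as a block and each library left out in turn. On simulated reads for shARID1A.2 against Control, limma found 199 of 200 changed genes, with 15 other calls among 18584 genes. Only those 200 genes were changed, all with means above those of ITGA10 and by at least 1 on the log2 scale. Recovery of smaller differences, of low counts or with most genes changed was not simulated. Replicate libraries differed by more than sampling noise in all 21 pairs (chi-square per degree of freedom 1.56 to 4.09). R 4.3.3 with limma 3.58.1, edgeR 4.0.16 and DESeq2 1.42.0 was used, with Python 3.11.15, numpy 2.4.6, pandas 2.3.3 and matplotlib 3.10.9.

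The members and lists were chosen with earlier results of these data known. Named genes are ARID1A, ARID1B, the 7 members and genes overlapping them, ITGB1 and ITGB4, in each list the 2 most abundant genes and the largest called rise and fall per comparison with Control, and the 3 genes most like each member. COL6A2, COL6A3, CD151 and DDR2 were also described across all conditions after their values were seen. Promoter sequences are from RefSeq (GRCh38.p14).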

Additional observations from a re-analysis of the deposited data

Results flagged for a closer look

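Both conditions of a label were compared with each other, since they carry the same targets in their names, and 13 of the 21 differences passed limma's adjusted p of 0.05. The conditions labelled shARID1A (shARID1A.4 minus shARID1A.2) differed by 0.31 ± 0.04 (SE, limma adjusted p = 1.84e-08) on the log2 scale for ITGA1, -1.46 ± 0.07 (SE, limma adjusted p = 3e-15) for ITGA2, -0.32 ± 0.08 (SE, limma adjusted p = 0.0011) for ITGA11, -0.73 ± 0.11 (SE, limma adjusted p = 2.77e-06) for ITGA3 and -0.99 ± 0.18 (SE, limma adjusted p = 3.18e-05) for ITGA7. Those labelled shARID1B (shARID1B.3 minus shARID1B.2) differed by 0.28 ± 0.04 (SE, limma adjusted p = 1.7e-07) for ITGA1, 1.25 ± 0.07 (SE, limma adjusted p = 1.17e-13) for ITGA2, -0.56 ± 0.11 (SE, limma adjusted p = 0.000124) for ITGA3 and 0.95 ± 0.10 (SE, limma adjusted p = 8.59e-09) for ITGA6. Those labelled shARID1A/B (shARID1A/B.4.2 minus shARID1A/B.2.3) differed by 1.05 ± 0.07 (SE, limma adjusted p = 2.66e-12) for ITGA2, -0.74 ± 0.08 (SE, limma adjusted p = 1.15e-08) for ITGA11, 0.97 ± 0.10 (SE, limma adjusted p = 4.11e-09) for ITGA6 and 1.38 ± 0.18 (SE, limma adjusted p = 2.99e-07) for ITGA7. In all 13 the 3 libraries of one condition did not overlap with the 3 of the other. These 13 were picked by their calls, and the share of all genes without overlap was not computed. Between 66 and 75.8% of all genes tested were called in the same 3 contrasts, so the calls do not set the members apart from other genes.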

How the results depend on the processing

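The number of members called stayed within 1.5 times its value in all 12 comparisons under every alternative run. Over the member values, 596 kept their direction and side of the threshold when 1 library was left out, 11 lost a call, 6 gained one and 17 changed sign. Under other settings these counts were 888, 7, 5 and 12. No value called here changed sign. Replicate numbers did not pair the libraries: none of 63 same-numbered pairs had a correlation over 0.1 (-0.0879 to 0.0529). With the replicate number as a block, 5, 6, 5, 4, 6 and 5 members were called against Control, and the 1 call lost was ITGA2 in shARID1B.3 (0.17, adjusted p from limma 0.0515). Scaling to total reads moved the median of all genes against Control to 0.19 in shARID1A.2, 0.15 in shARID1B.2 and 0.20 in shARID1A/B.4.2, and upper-quartile scaling to 0.20, 0.13 and 0.18, and calls that were lower went from 50.2, 51.9 and 50.7% to 38.8, 37.0 and 35.2% and to 38.2, 38.8 and 37.0%. Against Control, leaving out 1 library gave signs that differed from the reported one for ITGA10 in shARID1A.2 (-0.69 to 0.24), shARID1A.4 (-0.69 to 0.25), shARID1A/B.2.3 (-0.70 to 0.23) and shARID1A/B.4.2 (-0.12 to 0.80) and for ITGA7 in shARID1B.3 (-0.24 to 0.086). Between conditions of a label the same held for ITGA10 in shARID1A.4 against shARID1A.2 (-0.36 to 0.47), for ITGA10 (-0.0048 to 0.62), ITGA11 (-0.080 to 0.13) and ITGA7 (-0.081 to 0.24) in shARID1B.3 against shARID1B.2, and for ITGA1 (-0.028 to 0.017) and ITGA3 (-0.062 to 0.0026) in shARID1A/B.4.2 against shARID1A/B.2.3. Other settings turned ITGA10 in shARID1A.4 against shARID1A.2 (edgeR 0.056, DESeq2 0.080, pseudocount 5 0.024), ITGA11 in shARID1B.3 against shARID1B.2 (total reads -0.070, upper quartile -0.021) and ITGA7 there (total reads -0.027). In shARID1A/B.4.2 against shARID1A/B.2.3 they turned ITGA1 (edgeR 0.0095, TMM 0.0098, total reads 0.15 and upper quartile 0.082, the last 2 called at adjusted p of 0.000509 and 0.0401 in limma) and ITGA3 (total reads 0.11, upper quartile 0.051). The cause was not tested. Depth limits ITGA10, at 3 to 20 reads per library, and to a lesser degree ITGA7.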
